A study of Mus musculus with 9 samples.

Results

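The small leucine-rich proteoglycans (SLRPs) were followed as 10 genes, Dcn, Lum, Bgn, Fmod, Ogn, Omd, Aspn, Prelp, Podn and Kera, found by symbol among the 29205 genes of the table. Each symbol matched 1 row. RNA of back skin from male BALB/c mice aged 6 to 8 weeks was sequenced in 3 groups of 3 libraries. The skin of all mice was shaved and treated with depilatory cream, and tissue was taken on day 13. The control group was left untreated, and no vehicle cream is described for it. The IMQ group received 62.5 mg of a cream with 5% imiquimod on the back daily for 5 days. Imiquimod activates Toll-like receptors of innate immune cells, and repeated application causes lesions like those of psoriasis. The LYS group received the same cream and Longkui Yinxiao soup (LYS), a herbal decoction. By the study's methods LYS was given by the intragastric route at the higher of 2 doses, while the labels give no dose. No group received LYS without IMQ.

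SLRPs are secreted proteins with a short core of leucine-rich repeats, and most carry glycosaminoglycan chains. They bind collagen fibrils and set their diameter and spacing, and several also bind growth factors or signal through receptors of innate immunity. In skin they are made mainly by dermal fibroblasts. They fall into classes by sequence, of which the members here are decorin (Dcn), biglycan (Bgn) and asporin (Aspn) in class I, lumican (Lum), fibromodulin (Fmod), PRELP (Prelp), osteomodulin (Omd) and keratocan (Kera) in class II, osteoglycin (Ogn) in class III and podocan (Podn) in class V. Chains of chondroitin or dermatan sulfate are typical of Dcn and Bgn, and chains of keratan sulfate of Lum, Fmod and Kera.

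Of the 10 genes, 8 lay in 3 clusters (GRCm38, GENCODE M21). Dcn (chr10:97479609-97518143), Lum (chr10:97565128-97572703) and Kera (chr10:97606879-97613692) stood on the plus strand within 134.1 kb. Aspn (chr13:49544443-49567565), Omd (chr13:49582462-49592822) and Ogn (chr13:49608046-49624501) stood on the plus strand within 80.1 kb, inside the gene Cenpp of the opposite strand. Prelp (chr1:133910304-133921414, minus strand) and Fmod (chr1:134037254-134048277, plus strand) were 138.0 kb from end to end. Bgn was at chrX:73483602-73495933 on the plus strand and Podn at chr4:108014791-108096445 on the minus strand. The exons of Prelp shared 350 bases, 9.68% of their length, with the antisense gene Gm15851, which held 0 to 3 counts in a library. Aspn shared 7 exon bases with Cenpp, which held 11 to 148 counts. Whether the counting used strand is not given in the sources used here, so reads of these overlaps cannot be told apart.

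The 250 bases before the RefSeq start (GRCm38.p6) were found for 8 of the 10 members, and Dcn and Lum did not match. The windows of the 3 neighbours on chromosome 13 and a window of Podn are shown. The neighbours were among the 9 members, on several chromosomes, that fell in the IMQ group, and Podn was not called there. Podn has 2 RefSeq starts. Its other window, with a GC content of 78.0%, overlaps an exon of GENCODE M21 and is not printed. Both windows lie inside the GENCODE M21 gene model of Podn, and the window shown lies downstream of the other start. Capitals mark matches on either strand to the TATA box, searched as TATAAA, to the CCAAT box by its letters, and to the GC box, searched as GGGCGG. Overlapping matches run together.
Aspn, chr13:49544193-49544442, plus strand: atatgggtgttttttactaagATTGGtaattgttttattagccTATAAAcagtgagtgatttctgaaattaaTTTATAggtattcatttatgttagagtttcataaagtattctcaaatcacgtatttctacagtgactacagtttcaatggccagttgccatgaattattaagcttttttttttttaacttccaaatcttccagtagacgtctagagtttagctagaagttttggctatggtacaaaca
Omd, chr13:49582212-49582461, plus strand: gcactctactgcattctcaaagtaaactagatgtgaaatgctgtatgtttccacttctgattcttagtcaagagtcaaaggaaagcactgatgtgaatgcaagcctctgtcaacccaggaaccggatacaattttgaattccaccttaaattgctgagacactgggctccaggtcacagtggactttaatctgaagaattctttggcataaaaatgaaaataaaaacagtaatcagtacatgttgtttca
Ogn, chr13:49607765-49608014, plus strand: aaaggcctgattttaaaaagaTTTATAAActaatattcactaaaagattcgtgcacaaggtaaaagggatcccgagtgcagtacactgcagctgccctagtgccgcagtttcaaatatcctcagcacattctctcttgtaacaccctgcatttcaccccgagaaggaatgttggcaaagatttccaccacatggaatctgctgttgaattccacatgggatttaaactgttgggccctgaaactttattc
Podn, chr4:108030987-108031236, minus strand: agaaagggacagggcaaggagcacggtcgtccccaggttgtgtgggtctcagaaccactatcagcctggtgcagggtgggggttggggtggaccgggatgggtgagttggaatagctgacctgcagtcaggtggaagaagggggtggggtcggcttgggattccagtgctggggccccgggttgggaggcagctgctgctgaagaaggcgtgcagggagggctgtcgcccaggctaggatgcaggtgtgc
The Aspn window held 2 matches to TATAAA and 1 to CCAAT, and the Ogn window held 2 overlapping matches to TATAAA. The windows of Omd and Podn shown here held none of these motifs. TATAAA stood in 12.4%, CCAAT in 33.8% and GGGCGG in 32.7% of 32851 RefSeq windows of the same length. The motif TGANTCA (AP-1 site), present in 6.75% of all windows, was in no window of the 8 members, and CANNTG (E-box), present in 66.2%, was in those of Bgn, Fmod, Ogn, Aspn and Podn. The Kera window, which lies inside the GENCODE M21 gene model of Kera, held 3 matches to CCAAT and that of Prelp 1. GGGCGG was found for Bgn and the other Podn start. GC content was 30.0% for Aspn, 38.4% for Omd and 42.0% for Ogn, against 64.0% for the Podn window shown. It was 64.4% for Bgn, 55.6% for Prelp, 51.2% for Fmod and 42.4% for Kera, which also fell in the IMQ group. The median of all windows was 52.4%. These matches describe letters and say nothing of binding.

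Counts per gene summed to between 14658645 and 19609878 per library. Levels of a gene across libraries are given as CPM, read counts scaled to library size with the TMM factors of edgeR, and levels of different genes are compared as FPKM, which also divides by gene length. Within each group the libraries differed beyond sampling error, with chi-square per degree of freedom of 16.9 to 100. This cannot tell separate mice from separate samples of the same mouse. The labels number the libraries without saying that each came from a separate mouse. The p-values thus set group differences against the spread between these libraries. DEGs were genes with an adjusted p under 0.05 in edgeR's quasi-likelihood test and an absolute log2 fold change over 0.58. Fewer cells of a type and less RNA per cell cannot be told apart in bulk skin.

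Dcn was the most abundant member per length in the control group, at 301 ± 28.7 FPKM (SD, n = 3), followed by Lum at 194 ± 12.2, Bgn at 95.9 ± 3.75, Ogn at 91.0 ± 17.0 and Aspn at 55.7 ± 6.52 FPKM. Prelp (27.0 ± 4.50), Podn (10.6 ± 1.34), Fmod (4.77 ± 0.205), Omd (4.30 ± 0.789) and Kera (1.42 ± 0.179 FPKM) followed. Bgn and Ogn, and Fmod and Omd, overlapped as neighbours in this order, and no other neighbours did. The order of the means was the same in the IMQ and LYS groups, though more neighbours overlapped there. The range from Dcn to Kera was wide, so the summed level was mostly Dcn, Lum and Bgn. The members took 0.335%, 0.361% and 0.310% of all counts in the control libraries 1 to 3, 0.137%, 0.0693% and 0.0534% in the IMQ libraries, and 0.173%, 0.307% and 0.347% in the LYS libraries. Summed FPKM of the IMQ group was 25.5% ± 13.0 of the control mean, and that of the LYS group 80.0% ± 26.4. On summed CPM, which uses the TMM factors, the IMQ group was at 34.5% ± 14.8 and the LYS group at 88.9% ± 25.2. The IMQ libraries lay below all others, and LYS library 1 lay between them and the rest.

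**Figure D1:**
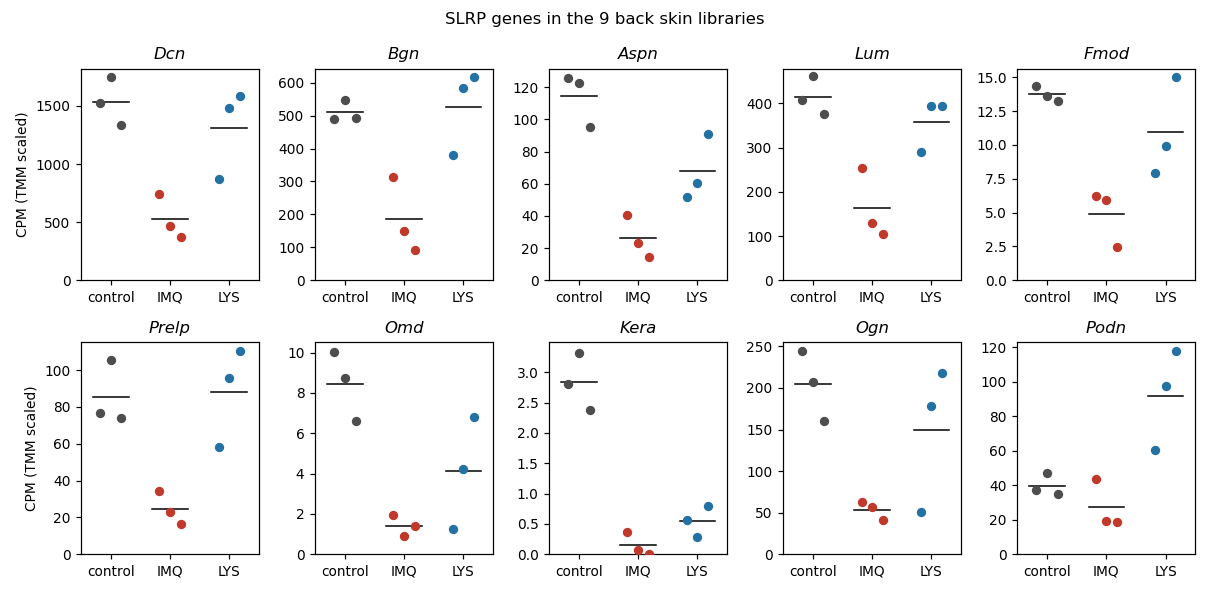
CPM of each SLRP gene (vertical axes from 0, each panel on its own scale) in the control, IMQ and LYS libraries, with a line at the group mean (n = 3). In 9 panels the IMQ libraries lie below the control libraries, Podn being the other, and in the Podn panel the LYS libraries lie above the control libraries.

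The comparison of IMQ with control skin asks how these genes differed between skin given imiquimod cream and untreated skin. Without a vehicle group, imiquimod cannot be told apart from the cream that carried it. In all, 9 members were downregulated: Dcn, Lum, Bgn, Fmod, Ogn, Omd, Aspn, Prelp and Kera, and Podn was not called. By fitted log2 fold change the falls ran from -1.35 (Lum) to -4.11 (Kera). The median over the 10 members was -1.68, against -0.06 over all genes tested. Among all 15976 genes tested 26.9% were downregulated and 24.1% upregulated DEGs.

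Among the class I genes, Dcn, which binds collagen and TGF-beta, measured 1525, 1753 and 1337 CPM in the control libraries and 742, 468 and 369 CPM in the IMQ libraries. All IMQ values were below all control values, with a log2 fold change of -1.55 ± 0.28 (SE) and an edgeR adjusted p of 0.00173. Bgn, which also acts on Toll-like receptors, measured 490.0, 548 and 493 CPM against 313, 150.3 and 92.9 CPM. It fell by 1.46 ± 0.39 on the log2 scale (edgeR adjusted p = 0.0123), and IMQ library 1 was the highest of its group. Without IMQ library 2, the call for Bgn was lost (log2 fold change -1.32, adjusted p = 0.0507). Aspn, an inhibitor of TGF-beta and a regulator of mineral, measured 126, 123 and 95.4 CPM against 40.3, 23.2 and 14.6 CPM. The groups did not overlap and the log2 fold change was -2.14 ± 0.33 (edgeR adjusted p = 0.00089).

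In class II, Lum, which limits fibril growth, measured 408, 461 and 377 CPM in the control libraries and 253, 131 and 105 CPM in the IMQ libraries, a log2 fold change of -1.35 ± 0.31 (edgeR adjusted p = 0.00604). Fmod, which shares a collagen site with Lum, measured 14.3, 13.6 and 13.2 CPM against 6.25, 5.96 and 2.49 CPM, a change of -1.49 ± 0.31 (edgeR adjusted p = 0.00378). All control values were above all IMQ values for both. Prelp, which links basement membrane to connective tissue, measured 77.0, 105.5 and 74.1 CPM against 34.5, 23.1 and 16.3 CPM, a change of -1.80 ± 0.27 (edgeR adjusted p = 0.000788). Omd, known from bone, measured 10.05, 8.73 and 6.62 CPM against 1.94, 0.89 and 1.39 CPM, a change of -2.57 ± 0.32 (edgeR adjusted p = 0.000309). Kera, best known from the cornea, was near the limit of detection in the IMQ group, with 58, 72 and 49 counts in the control libraries against 6, 1 and 0. The 0 allows up to 3 counts or 0.220 CPM. Its fitted change of -4.11 ± 0.65 (edgeR adjusted p = 0.000962) depends on the prior count, and it was -6.01 without IMQ library 1, -3.38 with limma on log2(FPKM + 0.1) and -1.20 on log2(FPKM + 1). Kera, Omd and Aspn had the 3 largest falls of the 10 with edgeR, while with limma on log2(FPKM + 1) Aspn, Ogn and Prelp had.

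Ogn, of class III, measured 245, 208 and 161 CPM in the control libraries and 63.1, 56.5 and 40.8 CPM in the IMQ libraries. It fell by 1.94 ± 0.21 on the log2 scale (edgeR adjusted p = 0.000154), with no overlap. Podn, of class V, measured 37.1, 47.1 and 35.0 CPM against 43.7, 19.0 and 18.7 CPM. IMQ library 1 lay within the control range and the other 2 below it, so the change of -0.55 ± 0.33 was not called (edgeR adjusted p = 0.178). Without that library Podn was called, at -1.07 (adjusted p = 0.000756), and also with library totals as the only scaling (-0.96, adjusted p = 0.0477), where the median of all genes was -0.51. In all, 9 of the 10 members did not overlap between the groups, where 36.0% of all genes tested were lower without overlap.

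**Figure D2:**
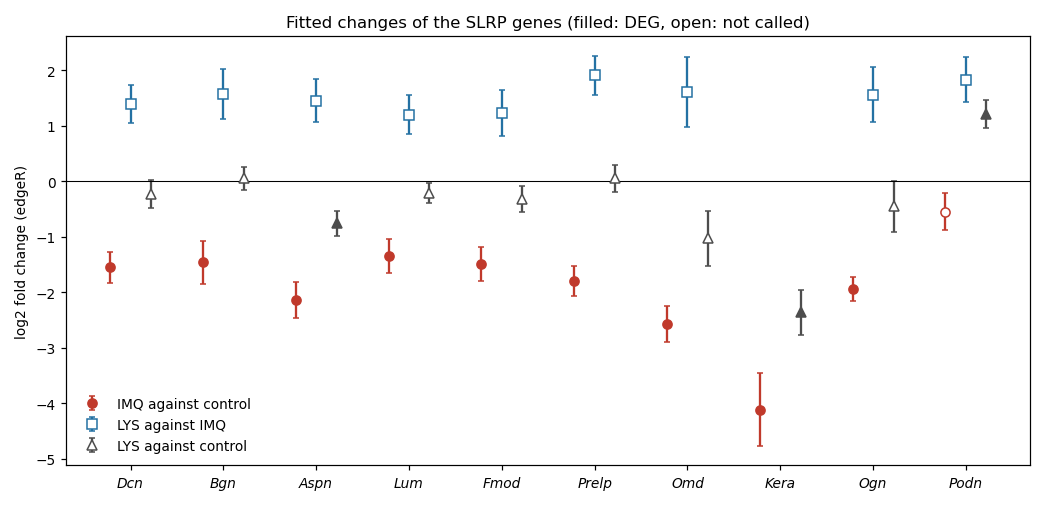
Fitted log2 fold change (vertical axis) with its SE for each SLRP gene in the 3 comparisons; filled symbols are DEGs and open symbols were not called, and Kera was not tested in the LYS against IMQ fit. The falls in the IMQ group are filled for 9 genes, every LYS against IMQ symbol is open and above 0, and Podn is the filled rise in the LYS against control fit.

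The comparison of LYS with IMQ skin asks whether LYS changed these genes in skin that also received imiquimod. All 9 members tested had a positive fitted change, from 1.20 (Lum) to 1.91 (Prelp) on the log2 scale, and none was called by edgeR at the adjusted p. The adjusted p lay between 0.0591 and 0.121. Unadjusted, 9 of 9 had p under 0.05, where 19.3% of all 15460 genes tested did so with a rise. No gene of the table was called higher by edgeR here (0.0% of genes tested). Kera was left out by the filter on low counts. The members' median was 1.56, against 0.04 over all genes. Lists of other cell types and of collagens had positive medians too, 1.54 for macrophage, 1.43 for adipocyte, 1.26 for fibroblast, 1.23 for collagen and 1.16 for endothelial genes, and keratinocyte markers had -0.81. DESeq2 called 7 of 8 macrophage, 4 of 8 adipocyte, 9 of 13 fibroblast and 6 of 8 endothelial markers higher. The share of all genes it called higher was 12.8%. It called 5 of 10 keratinocyte markers lower, and 3334 genes of the table in either direction. The part of these cells in the change of the members was not tested.

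Dcn measured 867, 1478 and 1584 CPM in the LYS libraries, each above every IMQ library, with a fitted change of 1.39 ± 0.35 (edgeR adjusted p = 0.0612). Prelp measured 58.1, 95.9 and 110.4 CPM in the LYS libraries, a change of 1.91 ± 0.35 (edgeR adjusted p = 0.0591). Podn measured 60.3, 97.7 and 118 CPM, a change of 1.83 ± 0.41 (edgeR adjusted p = 0.0591). Bgn measured 381, 583 and 617 CPM, Lum 289, 393 and 393 CPM, Fmod 7.95, 9.89 and 15.0 CPM and Aspn 52.0, 60.3 and 90.9 CPM, each without overlap with the IMQ libraries. Their fitted changes were 1.57 ± 0.45 for Bgn, 1.20 ± 0.35 for Lum, 1.23 ± 0.41 for Fmod and 1.45 ± 0.39 for Aspn. The 2 other members tested overlapped: Ogn measured 51.2, 178 and 218 CPM and Omd 1.26, 4.24 and 6.82 CPM. In both, LYS library 1 lay inside the IMQ range, and the fitted changes of 1.56 ± 0.50 and 1.61 ± 0.63 had the largest SEs of the 9. Kera, not tested, held 8, 5 and 14 counts against 6, 1 and 0, and the groups overlapped in CPM. Thus 7 of the 10 members were higher without overlap, where 16.8% of all genes were.

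The call depended on the setting and on 2 libraries. IMQ library 1 had the highest CPM of its group for all 10 members, and LYS library 1 had the lowest of its group for 9. Without LYS library 1, all 9 members tested were called higher, where 14.9% of all genes were. Without IMQ library 1, 6 of 9 were called (Dcn, Lum, Bgn, Aspn, Prelp and Podn), where 6.8% of all genes were. Leaving out any of the other 4 libraries gave 0 calls. DESeq2 called 8 of 9, all but Omd (12.8% of all genes), edgeR on all 9 libraries in a single fit called 8 of 10, all but Omd and Kera (9.93%), and limma on log2(FPKM + 1) called 0. The summed CPM of the keratinocyte marker list was 45989 in IMQ library 1 and 36968 in LYS library 1, between the ranges of the other IMQ libraries (57937 to 61571) and the other LYS libraries (19759 to 20991). The part of these marker levels in the result was not tested.

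**Figure D3:**
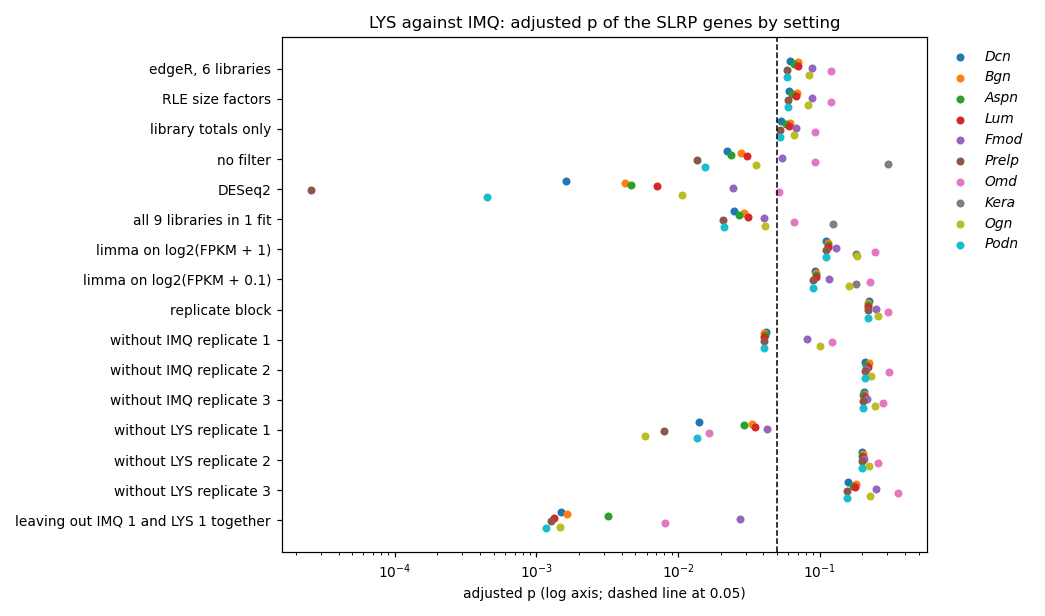
Adjusted p (horizontal, log axis) of each SLRP gene in the LYS against IMQ comparison under each setting (vertical axis); the dashed line is at 0.05. With edgeR on the 6 libraries, all points lie to the right of the line, and without LYS library 1 all 9 lie to its left.

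The comparison of LYS with control skin asks how far skin that received both treatments differed from untreated skin. Of the 10 members, 3 were DEGs: Podn was upregulated, and Kera and Aspn were downregulated. Upregulated DEGs were 15.1% and downregulated DEGs 12.9% of the 16003 genes tested. The CPM of Podn was higher without overlap (25.0% of all genes), and those of Aspn and Kera were lower without overlap (25.3%).

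Podn measured 60.3, 97.7 and 118 CPM against 37.1, 47.1 and 35.0 CPM in the control libraries, a log2 fold change of 1.21 ± 0.25 (edgeR adjusted p = 0.00989). All LYS values were above all values of the control and IMQ groups. The call was lost with limma and without control library 1 (adjusted p = 0.0591), where the change was still 1.16. Kera, at 8, 5 and 14 counts, stayed far below the 49 to 72 of the control libraries, a change of -2.36 ± 0.40 (edgeR adjusted p = 0.00513), and it was called in all 14 refits with another tool, scaling, filter or set of libraries. Aspn, at 52.0, 60.3 and 90.9 CPM against 126, 123 and 95.4 CPM, had a change of -0.76 ± 0.22 (edgeR adjusted p = 0.0358). This call was lost under 7 of the 14 refits, among them the fit on all 9 libraries (adjusted p = 0.105) and without LYS library 2 (adjusted p = 0.123).

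The other 7 members were not called, with adjusted p of 0.147 to 0.905. Dcn had a fitted change of -0.23 ± 0.26, Lum -0.21 ± 0.18, Bgn 0.05 ± 0.21, Prelp 0.05 ± 0.25, Fmod -0.32 ± 0.24 and Ogn -0.45 ± 0.46. Omd had the largest of these, -1.03 ± 0.49, with LYS library 1 at 1.26 CPM and library 3 at 6.82 CPM. Without LYS library 3, Omd (-1.59, adjusted p = 0.0374) and Fmod (-0.61, adjusted p = 0.0430) were called as well. The fitted sign of Bgn and Prelp turned negative with library totals as the only scaling, where the median of all genes was -0.15.

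The log2 ratio of each member to Dcn in FPKM, which needs no scaling between libraries, asks whether members changed by unequal amounts. The ratio of Podn was -4.91, -4.77 and -4.81 in the control libraries, -3.63, -4.17 and -3.85 in the IMQ libraries and -3.40, -3.47 and -3.30 in the LYS libraries. All 3 groups were apart, with means that were higher than the control mean by 0.94 for IMQ and by 1.44 for LYS. As a share of the summed FPKM of the members, Podn was at 1.35% ± 0.102 in control skin, 2.67% ± 0.417 in IMQ skin and 3.59% ± 0.196 in LYS skin. Relative to Dcn, the difference from the control mean was -1.04 (IMQ) and -1.06 (LYS) for Omd and -0.65 and -0.52 for Aspn. It was -2.21 (LYS) for Kera, and its ratio was not computed for the IMQ group because library 3 had no count. For Prelp it was -0.25 (IMQ) and 0.28 (LYS), and for Bgn 0.29 (LYS), each without overlap with the control libraries. Lum, Fmod and Ogn overlapped in every comparison. With 3 libraries against 3 the exact two-sided permutation test cannot go below 0.1, the value reached in each comparison without overlap (adjusted p = 0.208 over 25 comparisons).

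**Figure D4:**
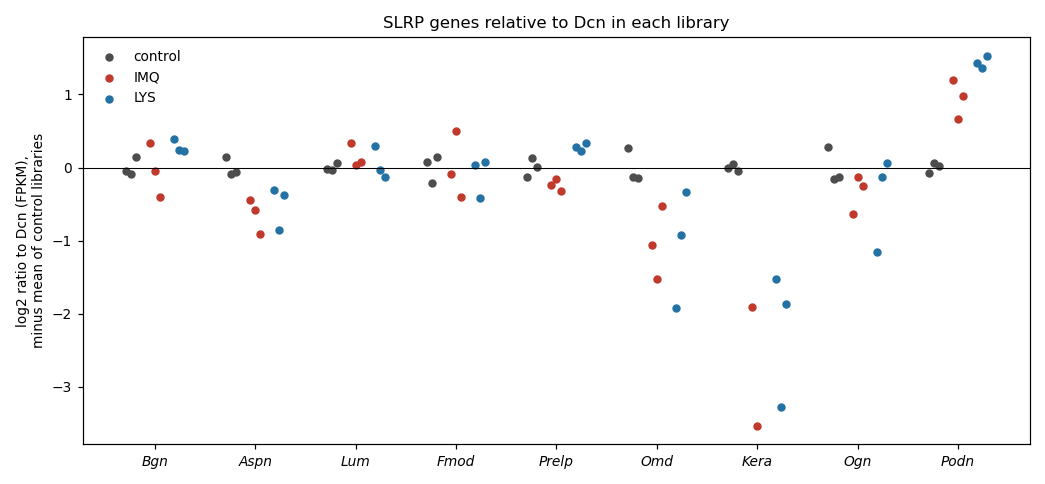
log2 ratio of each SLRP gene to Dcn in FPKM, minus the mean of the control libraries (vertical axis), 1 point per library. Podn lies above 0 in all IMQ and LYS libraries, Aspn and Omd below it, and the Kera point of IMQ library 3 is missing because its count was 0.

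The library profile nearest to that of Dcn over the 9 libraries was that of Igfbp7, with a root mean square difference of 0.07 in centred log2(CPM + 1), followed by Tgfbr3, Fndc3b, Mrgprb1 and Kank2 (0.10). Podn was nearest to Htra3 (0.182), Mmp2 (0.216), Tnxb (0.225), Selp and Stard9. Bgn was nearest to Slit3 (0.169), Zfhx4, Thsd7a, Jam2 and Fbln5, and Prelp to Loxl1 (0.121), Slit3, Heg1, Zfhx4 and Pdgfra. These are descriptions over 9 libraries of shared depth and scaling.

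The collagens that SLRPs bind fell with them. All 11 tested were downregulated in the IMQ group, with a median of -2.20, from -1.08 for Col12a1 to -3.17 for Col5a3, a minor fibrillar chain. Col1a1, the main chain of dermal collagen, measured 5615, 7253 and 7529 CPM in the control libraries and 2915, 1170.4 and 802 CPM in the IMQ libraries. In the LYS group 7 of 11 were still lower than in the control group, with a median of -1.05, though the fit on all 9 libraries called 4 and DESeq2 10. There Col1a1 measured 2116, 3652 and 4378 CPM. Against the IMQ group, 0 of 11 were called by edgeR, with a median of 1.23, while 8 of 11 had an unadjusted p under 0.05 and DESeq2 called 8 higher. The summed CPM of the members was 0.0932 to 0.124 of that of the collagens in the control libraries, 0.139 to 0.202 in the IMQ libraries and 0.177 to 0.204 in the LYS libraries, so the control libraries lay below the others.

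**Figure D5:**
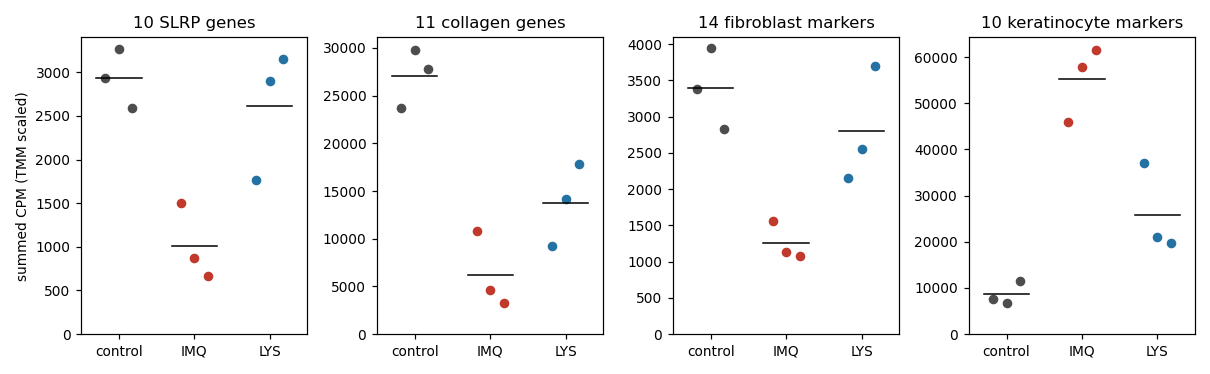
Summed CPM (vertical axes from 0) of the 10 SLRP genes, 11 collagen genes, 14 fibroblast markers and 10 keratinocyte markers in each library, with a line at the group mean. The SLRP, collagen and fibroblast sums are lowest in the IMQ group and the keratinocyte sum is highest there.

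Leucine-rich repeat matrix genes outside the 10 members did not all move as these members did. Ecm2 fell in the IMQ group from 46.6, 54.9 and 38.3 CPM to 19.9, 9.38 and 6.52 CPM, and Chadl fell by 1.51 ± 0.43 on the log2 scale. Nyx rose by 2.97 ± 0.44 and Podnl1, the podocan-like relative of Podn, by 1.50 ± 0.47, from 3 to 10 counts to 11 to 17 counts. The call of Podnl1 (edgeR adjusted p = 0.0237) was lost in 10 of 14 refits, DESeq2 among them (adjusted p = 0.0576), and those of Nyx and Chadl with limma on log2(FPKM + 1), that of Chadl also without control library 2. Tsku was not called (0.24), and the filter on low counts left Epyc, Optc and Chad out of the IMQ against control fit. Podnl1 reached 33, 37 and 50 counts in the LYS libraries, a change of 2.91 ± 0.43 against the control group (edgeR adjusted p = 0.00312). It was the 1 gene of this list called by edgeR on those 6 libraries, and its call held in every refit. Podn and Podnl1 were thus both upregulated in LYS skin against control skin. Refits also called Epyc, at 0, 3 and 0 counts in the LYS libraries, lower than in control skin. These were edgeR with no filter (-3.06, adjusted p = 0.0491), DESeq2 (-3.19, adjusted p = 0.0416) and limma on log2(FPKM + 0.1). Without LYS library 3, edgeR called Ecm2 lower (-1.39, adjusted p = 0.0164).

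The shares of all genes called, 26.9% lower and 24.1% higher in the IMQ group and 12.9% lower and 15.1% higher in the LYS group against the control group, are the background for the counts that follow. Of 22 genes that build chondroitin and dermatan sulfate chains, 14 were downregulated in the IMQ group, led by Chsy3 (-2.86) and Chst3 (-2.03), and 2 upregulated, B4galt7 (0.84) and Fam20b (0.80), which act on the linker of the chain. Of 6 keratan sulfate genes tested, 3 fell, led by B4galt4 (-1.83), and B3gnt7 rose (2.37). In the LYS group against the control group, 3 chondroitin sulfate genes were lower, led by Chst3 (-2.41) and Chsy3 (-1.52), Chst7 (1.08) was higher, and B3gnt7 was higher (1.98). Of 13 growth factor and receptor genes, 5 fell in the IMQ group, led by Bmp4 (-2.43) and Ccn4 (-2.05), and Tlr2 rose (1.66). In the LYS group 3 were lower than in the control group, led by Bmp4 (-2.0), and Tlr2 (2.15) and Tgfb1 (0.85) were higher. Of 12 proteases that cleave SLRPs, 4 fell in the IMQ group, led by Adamts4 (-1.86), and Mmp13 (3.76) and Mmp9 (1.82) rose, counts near those shares. In the LYS group 4 were higher than in the control group, led by Mmp13 (3.60) and Mmp9 (2.19), and none was lower. Against IMQ skin, 0 of the 156 genes tested in all 17 further lists were called by edgeR. In either direction, 92 had an unadjusted p under 0.05 with edgeR, and DESeq2 called 72. Of all genes tested, 19.3% had an unadjusted p under 0.05 with a rise. DESeq2 called 12.8% of all genes higher, and 3334 genes in either direction.

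Most fibroblast markers fell in the IMQ group, as the members did, while the tendon list went both ways. Of 13 fibroblast markers tested, 11 fell, led by Gli1 (-4.08) and Fap (-2.41), with a median of -1.78. The summed CPM of 14 fibroblast markers was 2830.4 to 3950.1 in control skin, 1081 to 1566 in IMQ skin and 2156 to 3695 in LYS skin. Members divided by this sum gave 0.828 to 0.916 in the control, 0.612 to 0.957 in the IMQ and 0.820 to 1.14 in the LYS libraries, and the control range overlapped both others. Against control skin, in LYS skin Pdgfrb (0.82) was higher and Gli1 (-3.34) and Thy1 (-1.29) were lower, and the fit on all 9 libraries called none higher and 3 lower. Of 5 tendon markers Tnmd (-3.71) and Thbs4 (-2.25) fell in the IMQ group and Egr1 (1.25) rose, and Tnmd (-2.63) and Thbs4 (-0.92) were also lower in LYS than in control skin, of which the fit on all 9 libraries called 1. The summed CPM of the tendon markers overlapped, at 150.4 to 195 in control and 159 to 254 in IMQ skin.

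Other cell types differed between the groups too. Keratinocyte markers rose in the IMQ group for 9 of 10, led by Krt1 (3.22) and Krt14 (3.07), and Krt15 fell (-0.78), and their sum was 6799 to 11580 CPM in the control, 45989 to 61571 in the IMQ and 19759 to 36968 in the LYS libraries. All 8 adipocyte markers fell, with a median of -3.11, led by Lep (-3.88) and Adipoq (-3.86). Skeletal muscle markers fell for 7 of 10, macrophage markers for 5 of 8, endothelial markers for 6 of 8, smooth muscle and pericyte markers for 3 of 6 (5 of 7 with DESeq2) and Schwann cell markers for 4 of 6. Neutrophil markers rose for 5 of 6, led by Retnlg (6.35) and Mmp8 (5.73). T cell markers rose for 4 of 8, and Lck fell (-1.05). In the LYS group against the control group, 8 of 8 adipocyte and 6 of 10 muscle markers were lower. The fit on all 9 libraries called 6 and 2 lower, and DESeq2 8 and 7. Of 10 keratinocyte markers 6 were higher and 1 was lower, while 4 of 5 neutrophil markers and 5 of 8 T cell markers were higher. In that comparison 0 of 8 macrophage and 0 of 6 Schwann cell markers were called by edgeR (3 and 2 at an unadjusted p under 0.05, and 2 and 2 called by DESeq2). There, 1 endothelial marker (Vwf) was higher, a call lost in the fit on all 9 libraries, and 1 smooth muscle and pericyte marker (Cspg4) lower. None of the markers was at 0 in every library. The part of these shifts in the change of the SLRP genes was not tested.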

How the data were processed

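RNA of mouse back skin (3 control, 3 IMQ and 3 LYS libraries) was sequenced after TRIzol extraction and NEBNext Ultra library preparation. The authors deposited raw counts per gene and FPKM for 29205 genes, and the submitters' processing notes name HISAT2, HTSeq 0.13.5 and the build GRCm38, without roles. The gene length behind FPKM was within 1 base of the GENCODE M21 exon length in 98.4% of genes matched. All columns had a sample.

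DEGs were found with edgeR 4.0.16 (R 4.3.3): TMM, filterByExpr with its minimum of 10 counts, glmQLFit and glmQLFTest on the 6 libraries of the groups compared, with Benjamini-Hochberg adjustment over all genes tested. SE was the absolute log2 fold change over the square root of F. Thresholds were those the study states. Scripts were tested on simulated data. DESeq2 1.42.0, limma 3.58.1 on log2(FPKM + 1) and log2(FPKM + 0.1), other scalings, no filter, all 9 libraries, a replicate block, other fold thresholds and leaving out each library were alternatives; leaving out IMQ 1 and LYS 1 together was added after seeing the data. Log2 ratios used exact permutation tests. Figures used matplotlib 3.10.9 in Python 3.11.15.

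The members and the 17 further lists (178 entries with the members, 176 found) were chosen with earlier results of these data known. Named genes are the members, any gene of the collagen and leucine-rich repeat lists, from other lists at most the 2 genes with the largest absolute log2 fold change among those called, plus any called against the direction of most, and the 5 genes nearest in profile (mean CPM at least 1) to Dcn and to members whose fitted direction differed from it. Protein sequences of the members were planned and were not analysed here.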

Additional observations from a re-analysis of the deposited data

How the results depend on the processing

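Over the alternatives, 137 of 140 member fold changes between IMQ and control skin kept their direction and side of the threshold. So did 88 of 135 between LYS and IMQ skin and 115 of 140 between LYS and control skin. The other 47 between LYS and IMQ skin passed the threshold, 9 of them in the setting chosen after seeing the data. Between LYS and IMQ skin, the members called went from 0 to 7 with no filter, 8 with DESeq2, 8 with all 9 libraries in a single fit, 9 with IMQ 1 and LYS 1 left out together (chosen after seeing the data), and 0 to 9 with single libraries left out. Genes called in the whole table went from 0 to 2419, 3334, 3040 and 5756 under the same settings, to 1 and 2 with limma at pseudocounts of 1 and 0.1, and to 0 to 4262 with single libraries left out. Genes called over the lists went from 0 to 72 with DESeq2 and 59 with all 9 libraries. Between LYS and control skin, 1 member was called with limma on log2(FPKM + 1) and 1 to 5 with single libraries left out, and 2910 genes of the table with an absolute log2 fold change over 1 and 2579 to 5072 with single libraries left out. The uncalled changes of Bgn and Prelp there turned to -0.07 and -0.07 with library totals only, -0.12 and -0.12 with limma on log2(FPKM + 1) and -0.12 and -0.13 on log2(FPKM + 0.1). With single libraries left out they ranged from -0.07 to 0.24 for Bgn, -0.14 to 0.28 for Prelp and -0.38 to 0.01 for Dcn. The cause of these shifts was not tested.

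The labels do not say what the library numbers stand for. Deviations of same-numbered libraries from their group means correlated between -0.46 and 0.2, and 1 of 9 pairs correlated best with its own number. Deviations from means of 3 libraries cannot tell whether the numbers mark a pairing or a batch. With the number as a replicate block 9, 0 and 2 members were called (IMQ against control, LYS against IMQ, LYS against control) and 8044, 0 and 3126 genes of the table. With 3 libraries a group, Kera in particular rests on few counts.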
